A study of Mus musculus with 12 samples.

Results

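The 10 adipocyte genes described here were Adipoq, Lep, Retn, Cfd, Plin1, Cidec, Fabp4, Lpl, Pparg and Car3, found by their symbols among the 55401 genes of the expression table, with 1 row each. RNA was measured in 12 libraries of orthotopic oral tumour tissue, 3 from each of 4 treatment groups. All mice were labelled C57BL/6 and had received MTC-Q1 cells, a mouse oral cancer line; the study's methods describe young C57BL/6J mice, injection into the buccal mucosa and a luciferase-expressing subline named Q1-2. Treatment began once tumours had formed and was given into the peritoneum. Mice received either control IgG (the group Ctrl-IgG), an anti-CSF1R antibody that blocks the receptor for a macrophage growth factor (aCSF1R), the cytokine interleukin-10 carried on an Fc fragment (IL-10-Fc), or BF10, in which interleukin-10 is fused to anti-CSF1R. The labels give the number of doses as 4 in one place and 6 in another. No label says whether the 3 libraries of a group came from separate animals, so p-values measure the spread between libraries, which may be technical. The tissue was not sorted, so each library mixes tumour cells, stroma, blood cells and whatever neighbouring tissue was excised.

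White adipocytes store triglyceride in a single large lipid droplet and release it as fatty acids. The nuclear receptor PPARγ (Pparg) switches on the genes of the mature cell, among them those for droplet coat proteins, for the carriers and lipase that bring fatty acids in, and for secreted hormones, the adipokines. Most of the 10 genes are used little outside fat, but Fabp4 is also made by macrophages and endothelium, Lpl and Pparg by macrophages, and Car3 by skeletal muscle, so single members do not mark adipocytes alone.

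The 250 bases before the transcription start are shown for 4 of the 10 genes, as listed in the RefSeq promoter table for GRCm38.p6. That listing held windows for 7 of the 10 genes. Of the 4 shown, Adipoq, Plin1 and Lep were higher together in the same libraries, whereas Pparg was not. Each of the 4 windows shown holds a match to 1 or more of the motifs below. Capitals mark matches on either strand to CCAAT, to TTGCNNAA (a core of the kind bound by C/EBP factors, the partners of PPARγ in fat cell differentiation), to AGGTCA (a nuclear receptor half-site) or to TATAAA. The windows were Adipoq at chr16:23146286-23146535 (plus strand), Plin1 at chr7:79732777-79733026 (minus strand), Lep at chr6:29059971-29060220 (plus strand) and the most downstream of 3 listed Pparg starts at chr6:115421816-115422065 (plus strand).
Adipoq: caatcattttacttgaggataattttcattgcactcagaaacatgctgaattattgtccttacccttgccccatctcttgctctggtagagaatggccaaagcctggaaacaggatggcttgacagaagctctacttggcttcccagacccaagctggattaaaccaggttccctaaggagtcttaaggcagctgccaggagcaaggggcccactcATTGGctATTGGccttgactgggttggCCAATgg
Plin1: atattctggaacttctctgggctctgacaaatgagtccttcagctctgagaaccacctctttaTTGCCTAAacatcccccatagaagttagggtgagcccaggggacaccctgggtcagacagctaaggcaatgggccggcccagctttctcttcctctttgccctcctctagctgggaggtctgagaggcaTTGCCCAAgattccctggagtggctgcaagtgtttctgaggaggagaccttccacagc
Lep: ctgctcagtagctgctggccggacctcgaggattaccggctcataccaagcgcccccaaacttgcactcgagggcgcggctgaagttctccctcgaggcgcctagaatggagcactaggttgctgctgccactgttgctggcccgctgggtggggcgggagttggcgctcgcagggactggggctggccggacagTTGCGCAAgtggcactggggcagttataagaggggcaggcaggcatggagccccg
Pparg: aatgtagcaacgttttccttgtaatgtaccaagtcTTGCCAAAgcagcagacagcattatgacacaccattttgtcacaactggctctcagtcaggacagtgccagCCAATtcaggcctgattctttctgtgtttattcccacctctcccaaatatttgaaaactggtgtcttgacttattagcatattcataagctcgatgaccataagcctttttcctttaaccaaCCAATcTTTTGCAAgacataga
Adipoq had 3 CCAAT matches, at 34, 27 and 7 bases before the start. Plin1 had TTGCNNAA matches at 187 and 58 bases before the start, and Lep had 1 at 55 bases. The downstream Pparg window had both kinds, CCAAT at 144 and 22 bases and TTGCNNAA at 215 and 16 bases before the start. Cidec, with 2 listed starts, had a TTGCNNAA match at 198 bases before 1 of them, while the windows of Cfd and Retn held none of the 4 motifs. Over the 10 windows of the 7 genes, TTGCNNAA was in 4, CCAAT in 3, AGGTCA in 2 and TATAAA in 1, against 9.56%, 33.8%, 14% and 12.4% of all 32851 listed windows of the same length. A match describes the letters only.

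The libraries differed in ways that touch every comparison below. H2-Ea, a class II histocompatibility gene that is not expressed from the C57BL/6 allele, was at most 0.27 FPKM in the 6 libraries labelled Ctrl-IgG and aCSF1R, and between 552.78 and 1726.81 FPKM in the 6 labelled IL-10-Fc and BF10 (FPKM is a fragment count scaled by transcript length and by the library's total). The latter 6 therefore go against their strain label. Krt8 and Krt18, keratins of simple and glandular epithelium, split the libraries along the same line, from at most 0.28 FPKM to at least 168.88 FPKM. The study also grew 4T1 mammary tumours in BALB/c mice; where the 6 libraries came from was not tested, and treatment and this difference cannot be told apart in IL-10-Fc or BF10 against Ctrl-IgG or aCSF1R. Xist, the transcript of the inactive X chromosome in females, was 17.09 to 30.68 FPKM in the libraries labelled IL-10-Fc and BF10 and at most 0.04 FPKM in the others. The Y-linked Eif2s3y was 4.23 to 11.33 FPKM in Ctrl-IgG and aCSF1R, listed at 0 in IL-10-Fc, and 0.05, 0 and 3.29 FPKM in BF10. BF10 replicate 3 thus stood apart, with both Xist at 23.65 FPKM and Eif2s3y at 3.29 FPKM. Without it, 7 adipocyte genes were called in BF10 against Ctrl-IgG, 4 against aCSF1R and 0 against IL-10-Fc, where all libraries gave 7, 5 and 0. Over all genes the calls without it were 3220, 3379 and 0 of 15579, where all libraries gave 3941, 3955 and 2 of 15813. BF10 against IL-10-Fc (apart from that library) and aCSF1R against Ctrl-IgG each compare libraries alike in these genes. The titles also carry a code from 1 to 7, whose meaning is not given, and code 6 occurs in 3 groups. FPKM summed to between 637596 and 976950 per library, and 4 libraries (replicate 1 of BF10, replicates 1 and 2 of IL-10-Fc and replicate 2 of Ctrl-IgG) had sums over 800000 with 6.57% to 9.04% of the sum in mitochondrial genes, against 2.99% to 3.61% in the others. Relative depth was read from the most frequent ratio between a library's low values and those of Ctrl-IgG replicate 1. It ran from 0.951 to 1.41 times that of this library. Only 53 to 153 of the 1377 to 3080 genes compared lay at the most frequent ratio, so these depths are approximate.

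Adipocyte transcripts were high in 4 of the 12 libraries. These were the 3 libraries labelled BF10 and replicate 1 of the 3 labelled IL-10-Fc, and for 8 of the 10 genes these 4 libraries were the 4 highest. Lpl and Pparg were the exceptions. The sum of Adipoq, Lep, Retn, Cfd, Plin1, Cidec and Car3 was 284.73, 191.36 and 227.02 FPKM in BF10 and 292.48 FPKM in IL-10-Fc replicate 1, but 8.27 and 17.13 FPKM in IL-10-Fc replicates 2 and 3. It was 1.68 to 17.14 FPKM in Ctrl-IgG and 8.41 to 18.17 FPKM in aCSF1R, where most of it was Car3. In bulk tissue, more adipocytes and more of these transcripts per adipocyte cannot be told apart.

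**Figure D1:**
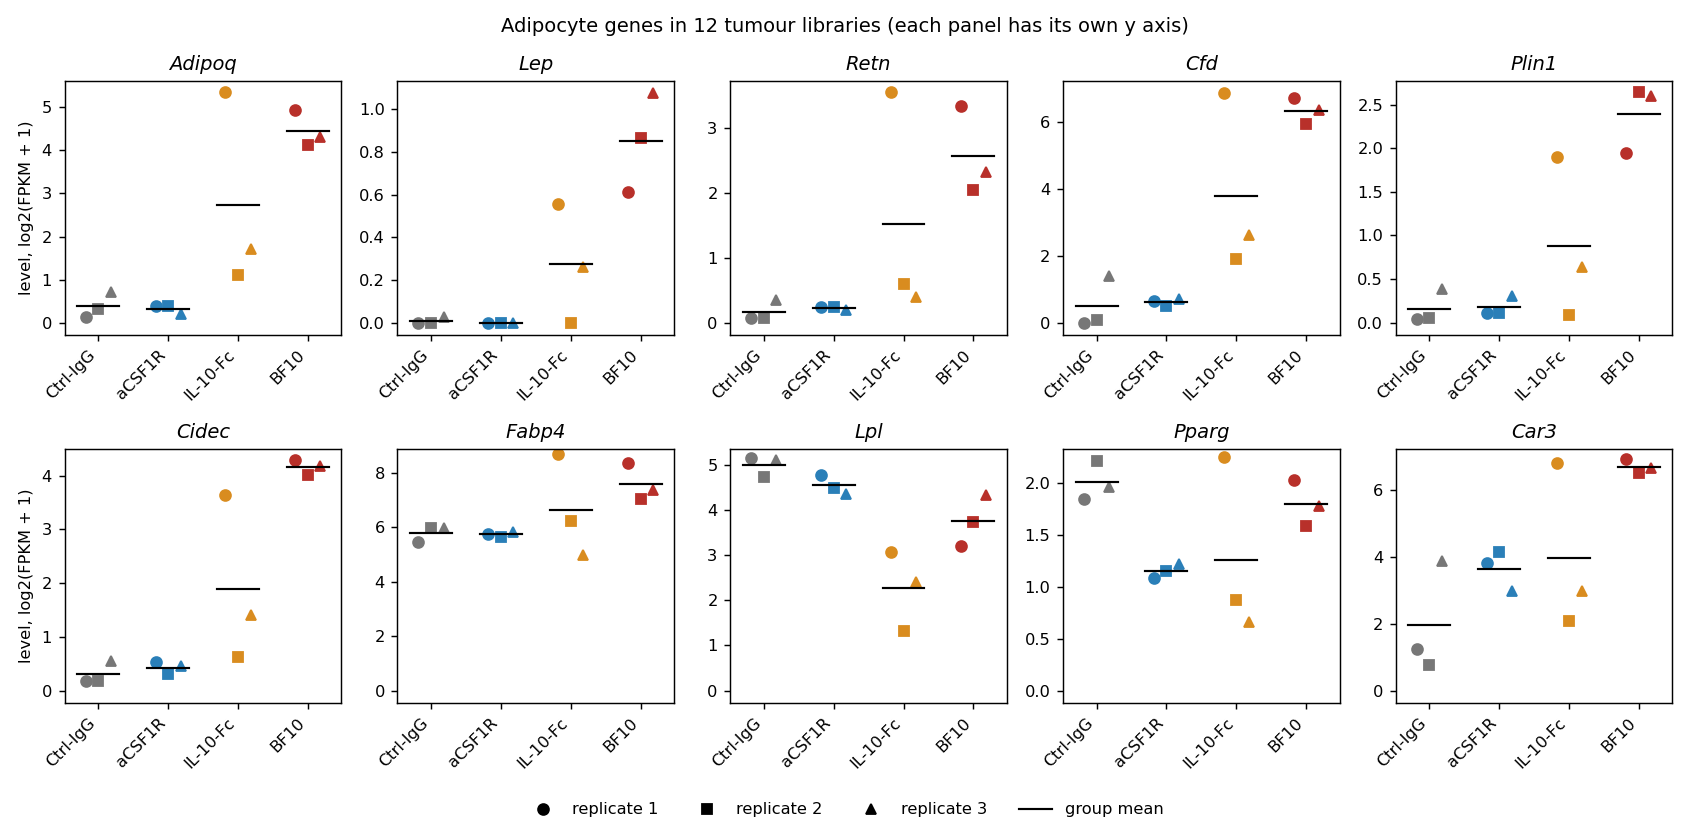
Level of each of the 10 adipocyte genes in each library, as log2(FPKM + 1) on the y axis (1 panel a gene, each with its own scale), by treatment group on the x axis; marker shapes are replicates 1 to 3 and black bars are group means of 3 libraries. In 8 panels the 3 BF10 libraries and IL-10-Fc replicate 1 are the 4 highest, whereas Lpl is highest in Ctrl-IgG and Pparg overlaps between Ctrl-IgG and BF10.

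Each gene was compared between groups with limma on log2(FPKM + 1), fitted to all 12 libraries and to the 15813 genes that reached 1 FPKM in 3 or more libraries, with p-values adjusted over all of them. Calling a gene required both an adjusted p below 0.05 and a 1.5-fold or larger difference. Ctrl-IgG serves as the control of 3 of the comparisons, which therefore share its libraries. Lep did not pass the filter, so 9 of the 10 genes were tested. Adipoq, Retn, Plin1 and Cidec reached 1 FPKM only in libraries labelled IL-10-Fc or BF10, so they were tested because they are high there. The shares of tested members called higher in these groups are therefore partly set by the filter. Fold changes below are differences on the log2(FPKM + 1) scale, which understates the change of genes near 0.

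The first comparison asks how tumours given BF10 differed from those given control IgG. In the libraries labelled BF10, with the H2-Ea difference above, 6 of the 9 tested genes were called higher than in Ctrl-IgG (Cfd, Car3, Adipoq, Cidec, Retn and Plin1), against 11.8% of all genes tested, and 1, Lpl, was called lower, against 13.2% of all genes. Fabp4 and Pparg were not called. The median log2 fold change was 2.41 over the 9 genes and -0.12 over all tested genes. Counting all 10, the ranges of the 2 groups did not overlap for 8 genes higher in BF10, a separation that 17.3% of all tested genes showed.

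Adipoq, which encodes the adipokine adiponectin (chromosome 16, 23146536 to 23158028), was 0.09, 0.25 and 0.64 FPKM in Ctrl-IgG and 29.75, 16.32 and 18.93 FPKM in BF10. The lowest BF10 library was far above the highest control. Its log2 fold change was 4.07 (SE 0.84, adjusted p = 0.00506 by limma).

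Cfd encodes adipsin, the complement factor D that adipocytes secrete (chromosome 10, 79890853 to 79892655). It was 0, 0.06 and 1.63 FPKM in Ctrl-IgG and 102.52, 60.20 and 80.84 FPKM in BF10, with a log2 fold change of 5.83 (SE 1.00, adjusted p = 0.00186 by limma). This was the largest difference of the 9 genes in this comparison.

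Retn encodes resistin, a hormone that mouse adipocytes secrete (chromosome 8, 3655770 to 3660110). Its level was 0.05, 0.05 and 0.27 FPKM in Ctrl-IgG against 9.07, 3.12 and 4.02 FPKM in BF10. The log2 fold change was 2.41 (SE 0.68, adjusted p = 0.0244 by limma). The call was lost when BF10 replicate 1 was left out (2.02 on the log2 scale), when Ctrl-IgG replicate 1 or 2 was left out, and in the fit without a filter.

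Lep encodes leptin, the satiety hormone of fat (chromosome 6, 29060220 to 29073877). It was listed at 0, 0 and 0.02 FPKM in Ctrl-IgG and at 0.53, 0.82 and 1.11 FPKM in BF10. All BF10 values lay above all control values, at the low end of what these libraries resolve. In the fit without a filter on low values its log2 fold change was 0.84 (SE 0.14, adjusted p = 0.00380 by limma).

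The 2 droplet coat genes behaved alike in this comparison. Plin1 encodes perilipin 1, which covers the droplet and holds lipases back (chromosome 7, 79720218 to 79732903), and was 0.03, 0.04 and 0.31 FPKM in Ctrl-IgG and 2.85, 5.23 and 5.07 FPKM in BF10. Cidec encodes the protein that fuses droplets into 1 large drop (chromosome 6, 113424634 to 113435760), and was 0.13, 0.14 and 0.46 FPKM in Ctrl-IgG and 18.61, 15.25 and 17.05 FPKM in BF10. For both genes the groups were far apart. Log2 fold changes were 2.23 for Plin1 (SE 0.39, adjusted p = 0.00198 by limma) and 3.86 for Cidec (SE 0.58, adjusted p = 0.000863 by limma).

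Car3 encodes carbonic anhydrase III, abundant in fat and in skeletal muscle (chromosome 3, 14863512 to 14872523). It was 1.38, 0.69 and 13.81 FPKM in Ctrl-IgG and 121.40, 90.42 and 100.00 FPKM in BF10, a log2 fold change of 4.74 (SE 1.09, adjusted p = 0.00899 by limma). The control value of 13.81 came from replicate 3, in which the 12 skeletal muscle markers also summed to 1263.53 FPKM, against 59.94 and 40.49 FPKM in Ctrl-IgG replicates 1 and 2. The part of muscle in the Car3 level was not tested. The BF10 libraries held 29.18, 57.31 and 150.72 FPKM of those muscle markers.

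The 2 genes of fatty acid uptake went apart. Fabp4, the fatty acid carrier of adipocytes (chromosome 3, 10204088 to 10208576), was already 42.37, 62.31 and 61.10 FPKM in Ctrl-IgG and reached 327.02, 129.70 and 165.70 FPKM in BF10. The ranges did not overlap, but the spread within BF10 was wide and the log2 fold change of 1.80 was not called (SE 0.73, adjusted p = 0.0984 by limma). Fabp4 was called in 4 of 15 alternatives, namely with these 2 groups alone (1.80), with a term for the code in the titles (2.07), with the FPKM sum as covariate (1.90) and without the 4 libraries of FPKM sum over 800000 (1.51). Lpl, the lipoprotein lipase that frees fatty acids at the vessel wall (chromosome 8, 68880491 to 68907448), was 34.74, 25.61 and 33.24 FPKM in Ctrl-IgG and 8.14, 12.21 and 19.27 FPKM in BF10. Every BF10 library was below every control, with a log2 fold change of -1.24 (SE 0.42, adjusted p = 0.04997 by limma, just inside the threshold). The Lpl call was lost in 9 of 15 alternatives, among them leaving out any 1 of the 3 control libraries (-1.38 to -1.16), while the direction held in all 15, from -1.54 to -0.96.

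Pparg, the master regulator of adipocyte differentiation (chromosome 6, 115360951 to 115490399, overlapped on the opposite strand by the antisense gene Gm44079), showed no such separation. It was 2.60, 3.65 and 2.91 FPKM in Ctrl-IgG and 3.09, 2.00 and 2.45 FPKM in BF10. The ranges overlapped and the log2 fold change was -0.21 (SE 0.36, adjusted p = 0.724 by limma), with a 95% interval of -0.997 to 0.578.

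**Figure D2:**
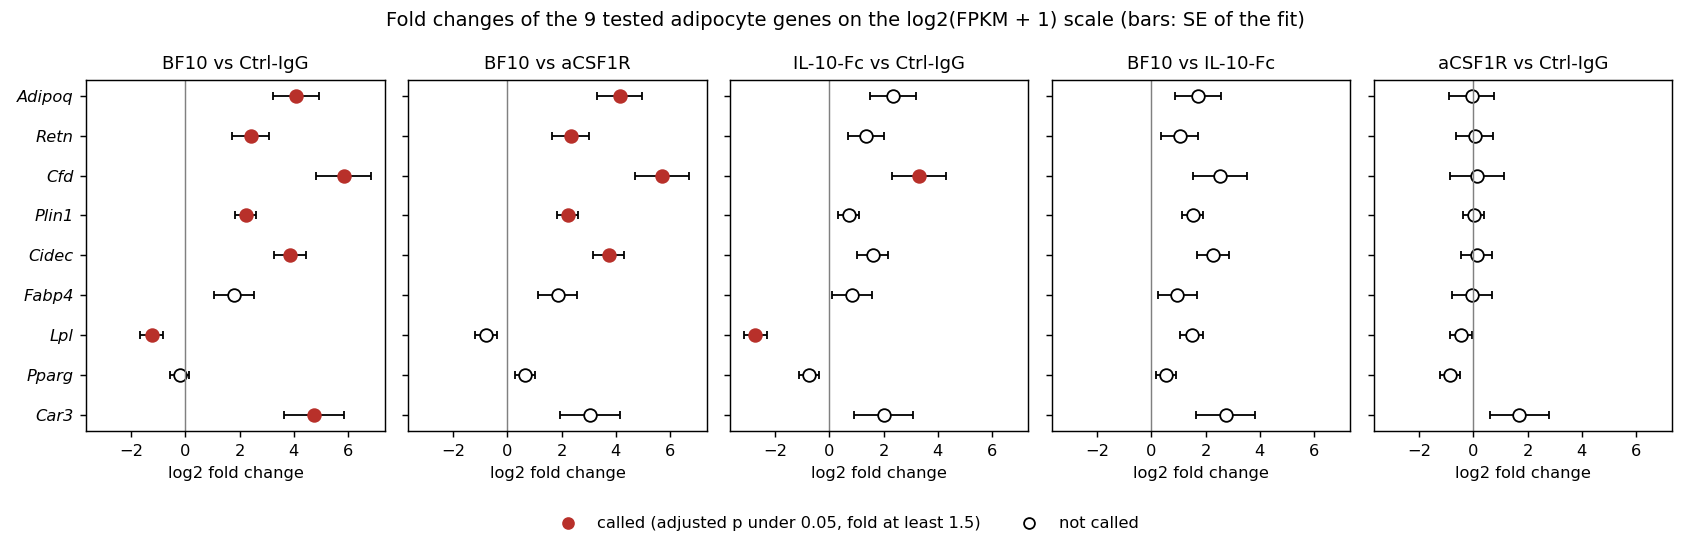
Log2 fold change on the log2(FPKM + 1) scale (x axis) of the 9 tested adipocyte genes (y axis) in 5 comparisons (panels), with bars for the SE of the limma fit over 12 libraries; filled points were called. Called points number 7 in BF10 against Ctrl-IgG, 5 in BF10 against aCSF1R, 2 in IL-10-Fc against Ctrl-IgG and 0 in the other two.

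Against aCSF1R, the antibody that BF10 carries, the libraries labelled BF10 differed again in H2-Ea, as they did from Ctrl-IgG. Called higher were 5 of the 9 tested genes, Cfd, Adipoq, Cidec, Retn and Plin1, against 11% of all genes, and 0 were called lower, against 14% of all genes. The median was 2.35 over the 9 genes and -0.21 over all tested genes. All 10 genes had ranges that did not overlap, 9 higher in BF10, where 19.8% of all tested genes did the same.

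In the aCSF1R libraries Adipoq was 0.30, 0.30 and 0.16 FPKM, Cfd was 0.58, 0.42 and 0.64 FPKM, and Lep was listed at 0 in all 3. Log2 fold changes of BF10 over aCSF1R were 5.70 for Cfd (SE 1.00, adjusted p = 0.00208 by limma) and 4.13 for Adipoq (SE 0.84, adjusted p = 0.00465 by limma). Cidec and Plin1 followed with 3.73 (SE 0.58, adjusted p = 0.00106 by limma) and 2.22 (SE 0.39, adjusted p = 0.00202 by limma). Retn stood at 2.35 (SE 0.68, adjusted p = 0.0277 by limma), a call that was lost without any 1 of the 3 aCSF1R libraries without BF10 replicate 1 or 3, or with no filter. Not called were Car3 at 3.04 (SE 1.09, adjusted p = 0.0653 by limma), Fabp4 at 1.85 (adjusted p = 0.0876), Pparg at 0.65 (adjusted p = 0.212) and Lpl at -0.79 (adjusted p = 0.194). Car3 in aCSF1R was 13.31, 16.95 and 6.86 FPKM, in libraries whose muscle markers summed to 793.95, 756.02 and 108.60 FPKM. The 5 calls became 8 when only these 2 groups were fitted, with Car3, Fabp4 and Pparg added. Calls over all 15813 genes rose there from 3955 to 5028.

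The third comparison asks the same of IL-10-Fc alone against control IgG. Levels differed widely among its 3 libraries. Cfd was called higher and Lpl lower, 1 gene in each direction of 9 tested, against 10.1% and 23.6% of all genes (30.0% of all calls were higher, which became 50.8% with median-of-ratios scaling). The median was 1.35 over the 9 genes and -0.39 over all tested genes, and 4 of the 10 genes had all IL-10-Fc libraries above all controls, as had 12.2% of the genes tested.

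Replicate 1 of IL-10-Fc held Adipoq at 39.71 FPKM, the highest of all 12 libraries, while replicates 2 and 3 held 1.16 and 2.30 FPKM. Cfd showed the same split, with 115.64 FPKM against 2.72 and 5.14 FPKM. Replicate 1 thus had 17.3 times the Adipoq and 22.5 times the Cfd of the higher of the other two. Both lower replicates still lay above all 3 controls for Adipoq, Retn, Cfd and Cidec, by small amounts. Retn was 10.69, 0.52 and 0.31 FPKM, Cidec 11.56, 0.54 and 1.67 FPKM, and Plin1 2.73, 0.06 and 0.56 FPKM in replicates 1 to 3. Lep was at 0.47, 0 and 0.20 FPKM. Car3 was 111.68, 3.27 and 6.95 FPKM, so its 2 low values lay within the range of the controls.

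The log2 fold change of Cfd over Ctrl-IgG was 3.30 (SE 1.00, adjusted p = 0.0270 by limma). Leaving out IL-10-Fc replicate 1 brought it to 1.76 and kept the call, whereas the call was lost without Ctrl-IgG replicate 1 or 2 (3.05 and 3.10), with no filter and with these 2 groups alone. Adipoq and Cidec were just outside the threshold, at 2.34 (SE 0.84, adjusted p = 0.0520 by limma) and 1.59 (SE 0.58, adjusted p = 0.0548 by limma). Adipoq was called in 7 of 15 alternatives, among them leaving out any 1 of the 3 IL-10-Fc libraries (1.03 without replicate 1, 3.15 without replicate 2 and 2.84 without replicate 3). Cidec was called in 5 of 15, among them without replicate 2 (2.23) or 3 (1.83), but not without replicate 1 (0.72). Retn (1.35, adjusted p = 0.146), Plin1 (0.71, adjusted p = 0.177) and Car3 (2.00, adjusted p = 0.177) were not called either. Fabp4 was 410.62, 73.79 and 30.40 FPKM, and its uncalled log2 fold change of 0.83 (adjusted p = 0.390) turned to -0.19 without replicate 1 and was called at 1.66 without replicate 3.

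Lpl was low in all 3 libraries labelled IL-10-Fc, also in the one rich in adipocyte transcripts. It was 7.43, 1.51 and 4.30 FPKM, all below the lowest control at 25.61 FPKM. Its log2 fold change of -2.73 (SE 0.42, adjusted p = 0.000715 by limma) was called in all 15 alternatives, from -3.13 to -2.26. Pparg was 3.77, 0.84 and 0.58 FPKM, with replicate 1 above the highest control and the other two below the lowest, and a log2 fold change of -0.75 (adjusted p = 0.128). Pparg was called lower without replicate 1, at -1.24, and with the FPKM sum as a covariate, at -1.02. Direction here runs between libraries that also differ in H2-Ea.

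The fourth comparison sets BF10 beside IL-10-Fc, which were alike in H2-Ea, Krt8 and Xist but not, in BF10 replicate 3, in Eif2s3y. Of the 9 tested genes 0 were called, against 0.0126% of all genes (2 of 15813), although 5 of the 9 and 828 of all genes had an unadjusted p under 0.05 by limma. All 9 log2 fold changes were positive, with a median of 1.52 against 0.34 over all tested genes, and all 9 adjusted p-values were 0.478. The intervals were wide, from -0.12 to 3.58 for Adipoq and from 0.32 to 4.75 for Cfd. Plin1 (1.52, SE 0.39), Cidec (2.27, SE 0.58) and Lpl (1.48, SE 0.42) had ranges that did not overlap, as had Lep, so 4 of the 10 genes, against 4.67% of those tested. The gaps were narrow for Plin1, at 2.73 FPKM in the highest IL-10-Fc library and 2.85 FPKM in the lowest BF10 library, and for Lpl, at 7.43 and 8.14 FPKM.

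Leaving out IL-10-Fc replicate 1 changed the outcome. Cfd, Cidec and Adipoq were then called higher in BF10, with log2 fold changes of 4.07, 3.14 and 3.04, among 4 calls over 15682 genes. Leaving out replicate 2 or 3 instead gave 0 calls among the members, with 1 and 2 calls over all genes. Replicate 1 was the IL-10-Fc library with by far the highest levels of these genes. Its removal widens the difference by construction, so these calls show only how much rests on that library. Relative to Adipoq, Car3 was 2.81 to 3.02 in the 3 IL-10-Fc libraries and 4.08 to 5.54 in BF10, although replicate 1 of IL-10-Fc held 17.3 times the Adipoq and 16.1 times the Car3 of the higher of the other two. In Ctrl-IgG and aCSF1R this ratio was 2.76 to 56.5, at Adipoq levels under 1 FPKM. Cfd per Adipoq was 2.23 to 2.91 in IL-10-Fc and 3.45 to 4.27 in BF10. The other ratios varied more within IL-10-Fc, from 10.3 to 63.6 for Fabp4, 0.0517 to 0.243 for Plin1, 0.135 to 0.448 for Retn and 0.291 to 0.726 for Cidec.

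**Figure D3:**
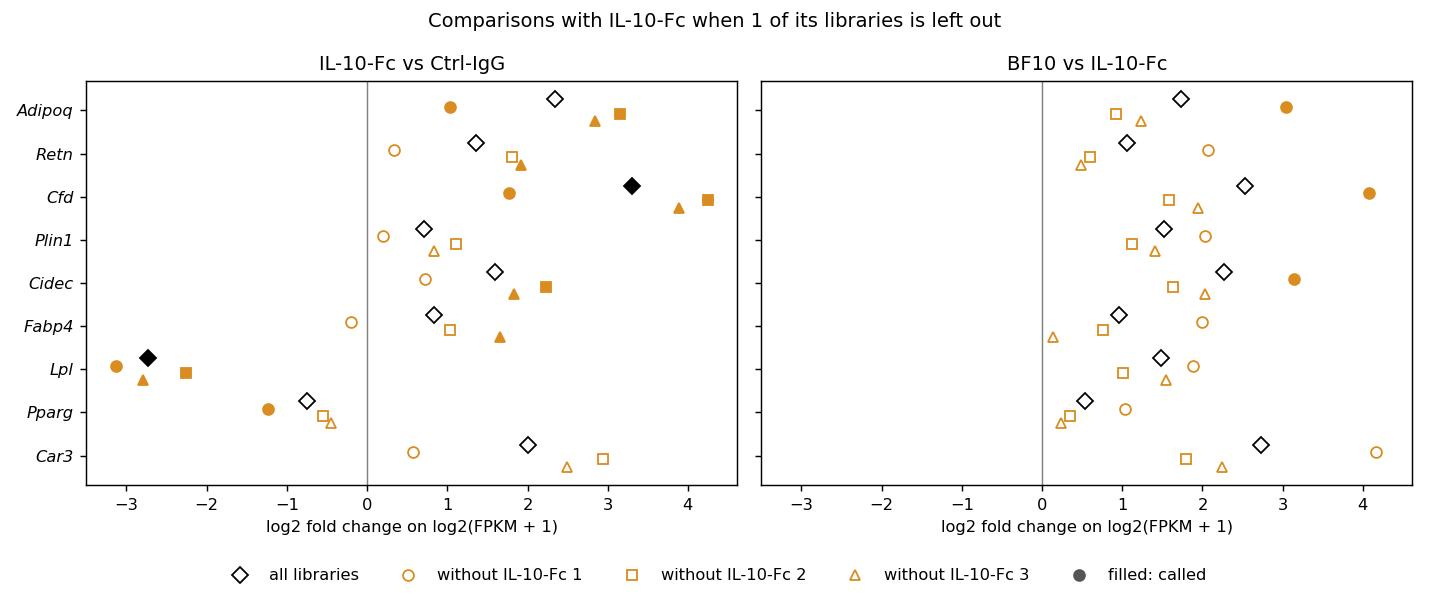
Log2 fold change on the log2(FPKM + 1) scale (x axis) of the 9 tested genes (y axis) in the comparisons of IL-10-Fc with Ctrl-IgG (left) and of BF10 with IL-10-Fc (right), with all libraries (diamonds) and with 1 of the 3 IL-10-Fc libraries left out; filled symbols were called. Without replicate 1 the values move left in the first panel, where Adipoq and Pparg become filled and Cfd and Lpl are filled as before, and right in the second, where Adipoq, Cfd and Cidec become filled.

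The last comparison, aCSF1R with Ctrl-IgG, gave 0 calls among the 9 genes and 0% among all genes, where 1 of the 9 and 437 of all genes had an unadjusted p under 0.05 by limma. Adipoq, Retn, Cfd, Plin1, Cidec and Fabp4 had log2 fold changes between -0.06 and 0.13. Pparg was the one gene with ranges apart, 1.13, 1.22 and 1.33 FPKM in aCSF1R against 2.60 to 3.65 FPKM in Ctrl-IgG. It was not called (log2 fold change -0.86, SE 0.36, adjusted p = 0.958 by limma). The share of all tested genes with ranges apart was not counted for this comparison, so the separation of Pparg is a description only. Lpl was 26.37, 21.56 and 19.46 FPKM in aCSF1R. Its highest value there lay just above the lowest control, and the log2 fold change was -0.46 (adjusted p = 0.958).

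Per length, the 10 genes kept a wide order of levels. In BF10 the mean was 207.5 FPKM for Fabp4 (SD 105), 104 FPKM for Car3 (SD 15.9), 81.2 FPKM for Cfd (SD 21.2), 21.7 FPKM for Adipoq (SD 7.12) and 16.97 FPKM for Cidec (SD 1.68), each n = 3. Lpl at 13.2 FPKM (SD 5.63), Retn at 5.40 FPKM (SD 3.21), Plin1 at 4.38 FPKM (SD 1.33), Pparg at 2.51 FPKM (SD 0.548) and Lep at 0.820 FPKM (SD 0.290) came after. Neighbours in this order overlapped in their ranges, except Fabp4 and Car3, Cfd and Adipoq, and Pparg and Lep. In Ctrl-IgG the order was led by Fabp4 (55.3 FPKM, SD 11.2) and Lpl (31.2 FPKM, SD 4.90), and Adipoq, Lep, Retn, Cfd, Plin1 and Cidec all had means under 1 FPKM.

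Within BF10 the genes did not vary in step. Replicate 1 held 2.54 times the Retn, 2.21 times the Fabp4 and 1.69 times the Adipoq of the mean of replicates 2 and 3, but 0.553 times the Plin1, 0.549 times the Lep and 0.517 times the Lpl. This order ran largely with transcript length. The longest annotated protein-coding transcripts of Fabp4, Cfd, Retn, Adipoq, Car3, Cidec and Pparg have 896 to 2125 bases and all 7 were higher in replicate 1, while those of Plin1, Lep and Lpl have 2817, 3259 and 4115 bases and were lower there. Over the 10 genes Spearman's rho between length and the log2 ratio was -0.90, and over the 11331 genes with at least 1 FPKM in all 3 BF10 libraries it was -0.25, both across genes that share the same 3 libraries. The 2 sets are unlike, since the 10 include Lep, at 0.53 and 0.82 FPKM in BF10 replicates 1 and 2, which the bound of 1 FPKM leaves out. The median log2 ratio of the 11331 genes fell from 0.52 for transcripts of up to 1000 bases to -0.17, -0.57 and -0.70 in the classes up to 2000, up to 4000 and over 4000 bases. Replicate 1 is the BF10 library with the FPKM sum over 800000 and the larger mitochondrial share, and the part of these in the spread was not tested.

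**Figure D4:**
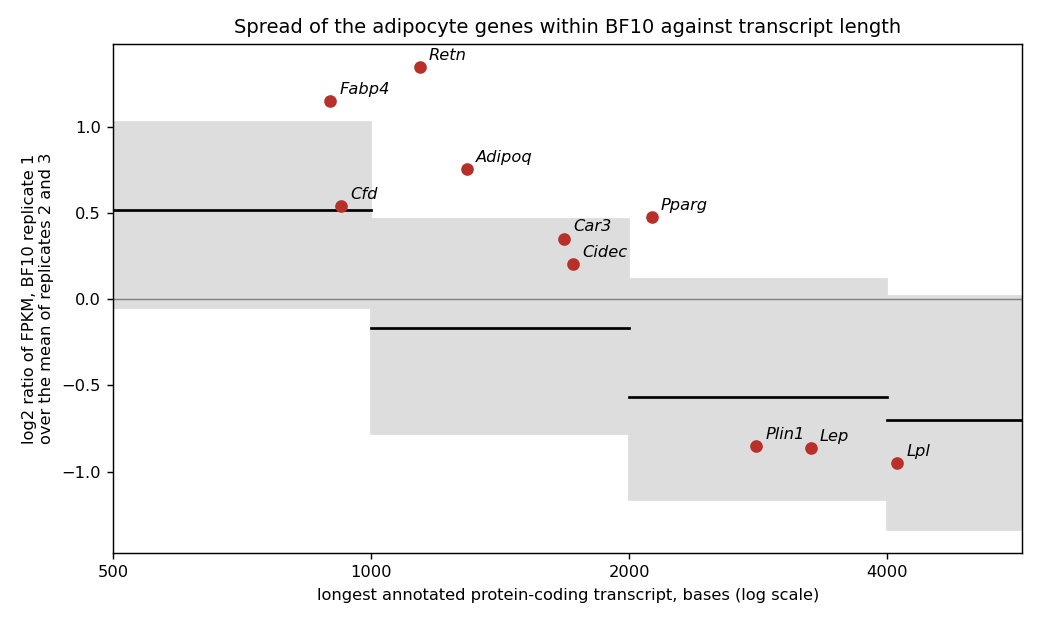
Log2 ratio of FPKM in BF10 replicate 1 over the mean of replicates 2 and 3 (y axis) against the length of the longest annotated protein-coding transcript in bases (x axis, log scale) for the 10 adipocyte genes (points); black lines and grey bands are the median and quartiles of all genes with at least 1 FPKM in the 3 libraries, in 4 length classes. The 7 members of up to 2125 bases lie above 0 and the 3 longer ones below.

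Among all 15813 tested genes, those whose pattern over the 12 libraries was most like that of Adipoq were its fellow members Cfd (Pearson r 0.99 on log2(FPKM + 1)), Retn (0.98) and Cidec (0.98), in the first 3 places. Plin1 was at place 20 (0.93), Fabp4 at 43 (0.90) and Car3 at 77 (0.88), whereas Pparg (0.41) and Lpl (-0.37) were far down. These are descriptions over 12 points that share 4 treatments and the H2-Ea split. Within the 6 IL-10-Fc and BF10 libraries alone, r with Adipoq was 0.97 for Pparg, 0.98 for Car3 and 0.76 for Lpl, so Pparg and Lpl differed from the rest through the Ctrl-IgG and aCSF1R libraries. The 10 nearest genes outside the list were Cdo1, Ephx2, Prlr, Serpina3c, Mup22, Gm15987, Serpina1a, Fgg, Slc36a2 and Slc1a3, with r from 0.98 to 0.94. Prlr is also on the luminal epithelial list used below. Cdo1, which encodes cysteine dioxygenase, was 0.24 to 0.99 FPKM in Ctrl-IgG, 6.24 FPKM in IL-10-Fc replicate 1, at most 2.11 FPKM in the other two, and 6.64 to 7.99 FPKM in BF10. Mup22, a major urinary protein gene of a family with near-identical copies, so that its reads are uncertain, reached 24.32 FPKM in IL-10-Fc replicate 1 and 2.87 to 21.70 FPKM in BF10.

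Of 80 other genes of adipocyte biology 63 were tested, and their calls went in both directions. In BF10 against Ctrl-IgG 12 were called higher and 6 lower, against 11.8% and 13.2% of all genes, with a median log2 fold change of 0.16 against -0.12 over all genes. In IL-10-Fc against Ctrl-IgG 7 were higher and 11 lower (10.1% and 23.6% of all genes), in BF10 against aCSF1R 12 and 10 (11% and 14% of all genes), and in the other two comparisons 0. In BF10 against Ctrl-IgG 2 of 4 tested genes of glucose and insulin handling, 1 of 5 of lipolysis and 2 of 10 of the lipid droplet were called higher. Of 8 tested genes of other secreted proteins, 3 were called higher (C1qtnf2, Rbp4 and Apln) and 1 lower (Agt). Irs2, an insulin receptor substrate, had a log2 fold change of 2.39 (SE 0.46, adjusted p = 0.00335 by limma), Gpd1, which makes the glycerol backbone of triglyceride, 1.78 (SE 0.43, adjusted p = 0.0114 by limma), and Lipe, the hormone-sensitive lipase, 1.77 (SE 0.51, adjusted p = 0.0260 by limma). G0s2, an inhibitor of the main triglyceride lipase, had 1.64 (SE 0.54, adjusted p = 0.0470 by limma). Irs2 and G0s2 were called higher in IL-10-Fc against Ctrl-IgG as well, whereas Gpd1 and Lipe were not. Their highest levels were in libraries with a low adipocyte sum, Irs2 at 13.97 FPKM in IL-10-Fc replicate 3 and G0s2 at 15.45 FPKM in IL-10-Fc replicate 2. Irs2 and G0s2 thus did not follow the 4 adipocyte-rich libraries. The adiponectin receptor gene Adipor2 rose by 0.91 on the log2 scale (adjusted p = 0.00760 by limma). Adipor2 was 31.95, 26.91 and 25.56 FPKM in BF10, and higher in IL-10-Fc replicate 3 (26.25 FPKM) than in IL-10-Fc replicate 1 (22.39 FPKM).

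Other genes of lipid handling were lower. Vldlr, a receptor for triglyceride-rich lipoproteins, fell by 2.66 on the log2 scale in BF10 against Ctrl-IgG (SE 0.30, adjusted p = 0.000158 by limma), and Dgat2, which completes triglyceride, fell by 1.45 (SE 0.46, adjusted p = 0.0395 by limma). Both genes were called lower in IL-10-Fc against Ctrl-IgG as well. Of the 14 tested genes of lipid synthesis 2 were higher, 3 lower and 9 not called. Of the 7 tested transcription factors of adipogenesis 0 were called in BF10 against Ctrl-IgG. In IL-10-Fc against Ctrl-IgG Cebpd was called higher and Ebf1, Zfp423 and Srebf1 lower. In BF10 against aCSF1R Cebpa was called higher and Zfp423 and Srebf1 lower. Of the thermogenic genes, which mark brown and beige fat, 4 of 7 were tested and only Prdm16 was called, lower in BF10. Ucp1, which defines brown fat, was at most 0.13 FPKM in every library, and Cidea was highest in Ctrl-IgG replicate 3 at 4.62 FPKM and at most 0.12 FPKM in BF10. The next highest Cidea levels were in aCSF1R replicates 1 and 2, at 0.92 and 0.69 FPKM. These 3 libraries also held the most stratified keratinocyte markers (below). The source of Cidea in them was not tested.

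Marker lists of other cell types showed what else moved with the adipocyte genes. The luminal epithelial list, led by Krt8 and Krt18, summed to 842.85 to 1284.99 FPKM in BF10 and 480.70 to 1202.86 FPKM in IL-10-Fc, against 5.33 to 13.38 FPKM in Ctrl-IgG and 6.43 to 7.46 FPKM in aCSF1R. In BF10 against Ctrl-IgG 4 of its 5 tested genes were called higher, where 11.8% of all genes were, a share that also applies to the lists that follow, while Elf5 and the milk protein genes Csn2, Wap and Lalba, 4 of its 9 genes, did not pass the filter. This list was high also in IL-10-Fc replicates 2 and 3, at 480.70 and 1202.86 FPKM, where the adipocyte sum was low. The 7 fibroblast markers, Col1a1 and Col3a1 among them, summed to 886.57 FPKM or more in all 6 libraries of that side and to at most 504.37 FPKM in the others, and in BF10 against Ctrl-IgG 4 of 7 were called higher. The 6 preadipocyte markers overlapped between groups, at 42.57 to 54.22 FPKM in BF10 and 19.65 to 61.74 FPKM in Ctrl-IgG, with 1 of 5 tested, Dpp4, called higher. Macrophage markers summed to 1024.08 to 1133.21 FPKM in BF10, 788.47 to 1241.70 FPKM in IL-10-Fc, 407.84 to 761.22 FPKM in Ctrl-IgG and 239.58 to 267.48 FPKM in aCSF1R, with C1qa, C1qc and Mrc1, 3 of 8, called higher in BF10 against Ctrl-IgG. Endothelial markers summed to 62.51 to 82.48 FPKM in BF10 and 27.40 to 59.05 FPKM in Ctrl-IgG, with 1 of 6 called higher. The part of these cell types in the levels of Fabp4, Lpl and Pparg was not tested.

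Skeletal muscle and stratified keratinocyte markers stood high in 3 libraries of other groups, and 0 of 12 and 0 of 8 were called in BF10 against Ctrl-IgG. The 8 keratinocyte markers summed to 2008.38, 1489.15 and 2022.88 FPKM in Ctrl-IgG replicate 3 and aCSF1R replicates 1 and 2 and to at most 36.79 FPKM in the other 9 libraries. The same 3 libraries led the muscle list and, outside the 4 adipocyte-rich libraries, held the 3 highest Car3 levels. Their Adipoq was 0.64, 0.30 and 0.30 FPKM.

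**Figure D5:**
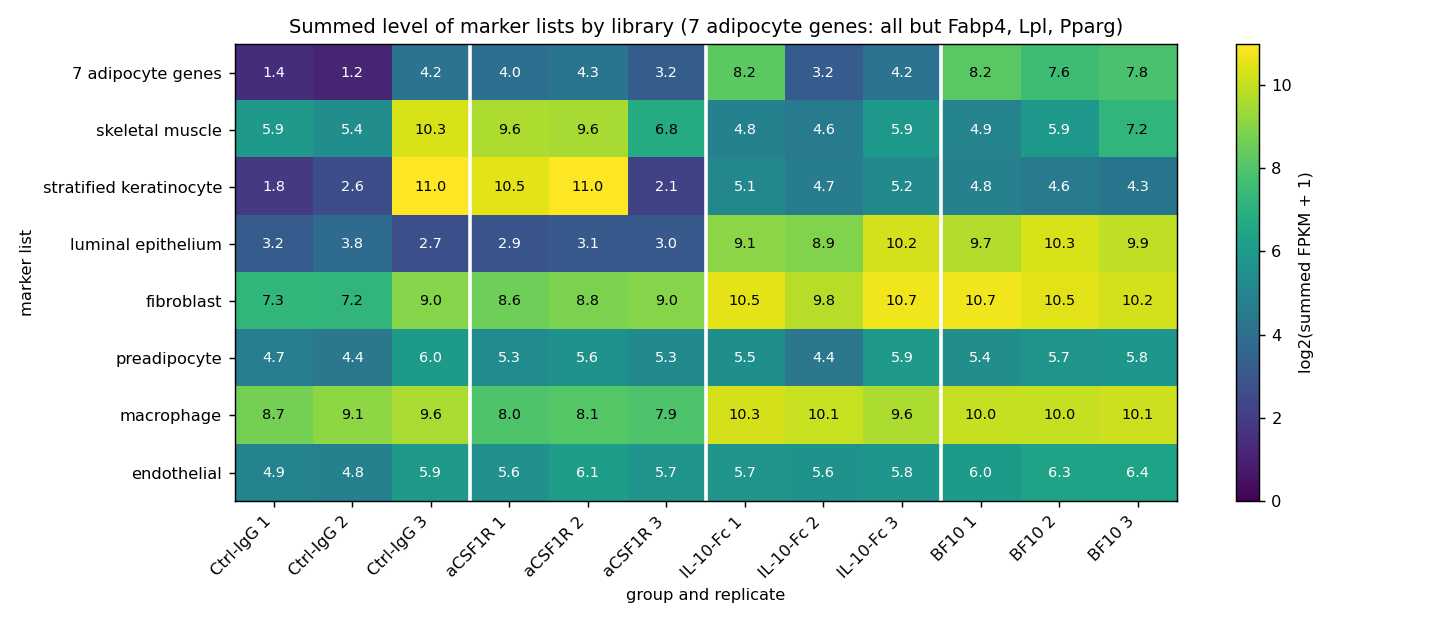
Summed level of each marker list (y axis) in each library (x axis, by group and replicate), as log2(summed FPKM + 1) in colour and digits; the first row sums 7 adipocyte genes (all but Fabp4, Lpl and Pparg). The adipocyte row is high in IL-10-Fc 1 and BF10 1 to 3, the luminal epithelial row in all IL-10-Fc and BF10 libraries, and the muscle and keratinocyte rows in Ctrl-IgG 3 and aCSF1R 1 and 2.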

How the data were processed

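Libraries were grouped by the treatment in the labels, 3 per group, and replicate numbers follow accession order. The authors prepared stranded mRNA libraries, and their processing notes name STAR 2.7.5a, RSEM 1.3.3, DESeq2 1.30.0 and GRCm38. The authors deposited FPKM values per gene and library, given with 2 decimals and without scaling across libraries. Deposited tables of 4 comparisons (fold changes and p-values from DESeq2) were not used. Fits used limma 3.58.1 in R 4.3.3 (lmFit, contrasts.fit, eBayes with trend; 8 residual degrees of freedom) on log2(FPKM + 1), two-sided, with Benjamini-Hochberg adjustment over 15813 genes, and were tested on simulated data. Fragment counts are not given, so depth is known only as a ratio between libraries. Intervals are 95%. Gene positions came from GENCODE M21. Named were all 10 members, some of the called pathway genes of largest change per list, the leading markers and the 10 genes nearest Adipoq. The members and lists were chosen with earlier results of these data known. Alternatives changed the pseudocount, filter, scaling, libraries and covariates. One more, leaving out the libraries with an FPKM sum over 800000, was chosen after seeing the data.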

Additional observations from a re-analysis of the deposited data

How the results depend on the processing

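The number of adipocyte genes called changed with some settings. In BF10 against Ctrl-IgG it went from 7 to 4 with a filter on a mean of at least 5 FPKM, where 6 genes were tested. It was 8 with the 2 groups alone, a term for the title code or the FPKM sum as covariate (Fabp4 added), and 5 to 7 with 1 library left out. Over all genes, 3941 of 15813 were called in the main fit and 2135 of 10289 with that filter. The 2 groups alone gave 2797, the title code 4726, the covariate 6901, and leaving out 1 library 2584 to 3719. Against aCSF1R the 5 became 3 with that filter, 8 with the 2 groups alone, 7 with the covariate and 6 with the title code. With 1 library left out they were 4 to 5. Over all genes the 3955 calls became 2121, 5028, 6740 and 5518 in the same order, and 2555 to 3379 with 1 library left out. For IL-10-Fc against Ctrl-IgG the 2 became 3 with the title code (Adipoq added) or the covariate (Pparg added) and 4 with a pseudocount of 0.1 or median-of-ratios scaling. They became 1 with no filter or the 2 groups alone, and 1 to 6 with 1 library left out. Over all genes the 5326 calls became 6722, 7144, 5470, 5200, 4554 and 2734 in that order. With 1 library left out they were 3530 to 8044, the most without IL-10-Fc replicate 3, which also gave the 6. Leaving out the libraries of FPKM sum over 800000 leaves IL-10-Fc with 1 library, assumed to vary like the other groups, so that count is not given. In BF10 against IL-10-Fc the 0 became 0 to 3 with 1 library left out, where the 2 calls over all genes became 0 to 109. In aCSF1R against Ctrl-IgG it was 0 throughout.

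Of 650 fold changes under alternatives, 16 turned in sign. Without the libraries of high FPKM sum, Fabp4 in IL-10-Fc against Ctrl-IgG was -0.72 and called lower (adjusted p = 0.0449 by limma), and -0.19 to 1.66 with 1 library left out. The others, in aCSF1R against Ctrl-IgG, were uncalled both ways. Adipoq was 0.13 with the FPKM sum as covariate and -0.19 to 0.10 with 1 library left out. Cfd was -0.071 without the high-sum libraries and -0.1131 to 0.5845 by leave-one-out. Plin1 was -0.0177 with the covariate and -0.0519 to 0.1279 by leave-one-out. Fabp4 was 0.0482 as TPM, 0.31 with the covariate, 0.0403 without the high-sum libraries and -0.2325 to 0.0403 by leave-one-out. The cause was not tested.

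Over all genes, BF10 against Ctrl-IgG gave 3941 calls and 2135 to 6901 under the alternatives that left out no single library. The 18 other pathway genes called there became 8 to 36. Median-of-ratios scaling moved the median of all genes in IL-10-Fc against Ctrl-IgG from -0.39 to 0.03. No paired analysis was possible because the replicate numbers follow accession order and the titles' code, whose meaning is not given, is shared by 1 library each of BF10, aCSF1R and IL-10-Fc and by no other libraries of different groups. Depth in fragments is unknown, and Lep lies near the lower end of the values.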
